A study of Mus musculus with 18 samples.

Results

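Metallothioneins and the proteins that move zinc in and out of cells were followed through 6 mouse genes: the metallothioneins Mt1, Mt2 and Mt4, the zinc exporter Slc30a1, the zinc importer Slc39a14 and the zinc-sensing transcription factor Mtf1. The genes were picked by symbol, with earlier results of these data known, so their differences between the arms are given as descriptions without p-values. All 6 were found, among 32285 genes, in all 10 gene expression matrices of the series, which holds single cells of mouse back skin after implantation of a skin expander.

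Every mouse was operated on: the skin of the back was opened near the tail, a path was made under it up to the neck, and the wound was stitched. In the expanded arm a hydrogel that swells and stretches the overlying skin was placed near the neck and held by stitches, and in the control arm no hydrogel was placed. Skin was taken at day 1, 2 or 4, live cells were sorted, and 3′ gene expression libraries were made with droplets. The labels name no strain, age or sex, and skin that was never cut was not analysed here, so the surgery is common to both arms. Each arm had 5 libraries: rounds 1 and 2 at day 1, rounds 1 and 2 at day 2, and 1 round at day 4. Each library pools mice of 1 arm and round, and p-values therefore measure the spread between such pools. For 8 of the 10 libraries, all but those of day 1 round 1, antibody tags mark the single mice, 3 or 4 per arm and round.

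The libraries held from 17726739 to 75470722 gene UMIs, which are counts of single captured RNA molecules. After filtering, 45488 cells remained, 28452 in the control and 17036 in the expanded arm. They fell into 37 clusters. Marker genes gave names to 17 classes, while 7981 cells in 11 clusters were left without one. A name therefore means "like": a fibroblast here is a fibroblast-like cell by its markers. Of 46988 distinct barcodes, 263 were seen in more than 1 library. No member and none of 24 other zinc genes was among the genes used for clustering: Mt1, Mt2, Mt3 and Mt4 were taken out of the variable genes, and the others were not among them. Levels are given as CPM, the summed UMIs of a gene over the cells of a class in 1 library, scaled to a total of 1000000 UMIs over all genes, for sums of at least 20 cells. Library by library, values are listed in the order day 1 round 1, day 1 round 2, day 2 round 1, day 2 round 2 and day 4.

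As background, metallothioneins are small, cysteine-rich proteins that bind zinc and copper and buffer their free ions. When free zinc rises, the transcription factor Mtf1 binds short metal response elements in the promoters of Mt1, Mt2 and Slc30a1 and raises their transcription, so these genes are widely read together as a zinc response. The metallothionein genes also respond to glucocorticoids and to oxidative stress. Slc30a1, also called ZnT1, exports zinc across the plasma membrane. Slc39a14, also called ZIP14, imports zinc as well as iron and manganese, and in the liver it is known as a target of interleukin 6. Mt4 is known from stratified epithelia such as the epidermis.

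In the GENCODE annotation of mouse build mm10 the metallothioneins form a row on the plus strand of chromosome 8. Mt4 (ENSMUSG00000031757) lies at chr8:94137197-94139031, Mt2 (ENSMUSG00000031762) at chr8:94172664-94173568 and Mt1 (ENSMUSG00000031765) at chr8:94179082-94180327. Mt3 sits between Mt4 and Mt2, and 5513 bases separate Mt2 from Mt1. Slc30a1 (ENSMUSG00000037434) lies at chr1:191906767-191913247 on the plus strand, Slc39a14 (ENSMUSG00000022094) at chr14:70303469-70351425 on the minus strand and Mtf1 (ENSMUSG00000028890) at chr4:124802104-124849800 on the plus strand. No stretch of 31 bases of an Mt1 transcript is found in another gene of this annotation, and 0.524% of those of Mt2 are shared with Pip5k1a.

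The promoters of the members that are read together as a zinc response carry the element that Mtf1 binds, and those of Mt1, Mt2 and Slc30a1 are shown for that reason, with that of Mt4 beside them. The letters are the 250 bases before the RefSeq start in build GRCm38.p6, 5′ to 3′ on the plus strand, on which all 4 genes lie. Capitals mark the core of the metal response element, searched as TGCACNC and TGCGCNC on both strands.
Mt1, chr8:94178839-94179088: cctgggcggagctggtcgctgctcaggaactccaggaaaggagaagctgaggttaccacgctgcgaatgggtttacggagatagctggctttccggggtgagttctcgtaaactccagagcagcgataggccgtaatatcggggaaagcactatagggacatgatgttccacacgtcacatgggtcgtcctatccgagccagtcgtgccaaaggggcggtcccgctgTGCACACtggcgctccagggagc
Mt2, chr8:94172368-94172617: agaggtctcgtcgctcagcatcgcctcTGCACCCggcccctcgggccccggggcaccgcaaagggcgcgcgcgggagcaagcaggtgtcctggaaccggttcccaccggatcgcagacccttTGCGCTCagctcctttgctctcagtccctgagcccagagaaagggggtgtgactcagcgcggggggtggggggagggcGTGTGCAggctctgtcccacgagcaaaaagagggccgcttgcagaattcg
Slc30a1, chr1:191906531-191906780: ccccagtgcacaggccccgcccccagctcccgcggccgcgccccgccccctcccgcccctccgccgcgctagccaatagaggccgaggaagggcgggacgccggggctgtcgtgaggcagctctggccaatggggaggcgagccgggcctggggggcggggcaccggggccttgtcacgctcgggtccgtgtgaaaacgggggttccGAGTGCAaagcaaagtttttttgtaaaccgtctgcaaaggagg
Mt4, chr8:94136954-94137203: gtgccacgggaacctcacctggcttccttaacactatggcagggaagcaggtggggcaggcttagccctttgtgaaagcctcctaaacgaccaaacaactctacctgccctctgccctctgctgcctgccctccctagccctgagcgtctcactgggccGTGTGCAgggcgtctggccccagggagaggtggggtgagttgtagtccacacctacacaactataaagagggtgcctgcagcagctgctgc

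Mt2 held 3 such cores in this window, counted back from the RefSeq start: TGCACCC from base 223 to 217, TGCGCTC from base 128 to 122, and on the reverse strand GTGTGCA from base 50 to 44. Mt1 held 1, TGCACAC, from base 23 to 17. Slc30a1 held 1 on the reverse strand, GAGTGCA, from base 43 to 37, Mt4 held 1 on the reverse strand, GTGTGCA, from base 91 to 85, and Mtf1 held 0. Of 32851 such windows across the genome, 21.4% held at least 1 core, 5.17% at least 2 and 1.26% at least 3. With the 50 bases after the start included, the cores numbered 3 in Mt1, 4 in Mt2, 2 in Slc30a1 and 1 in Mt4, and 1.97%, 0.517% and 7.11% of windows held as many as Mt1, Mt2 and Slc30a1. The core of the antioxidant response element, searched as TGAC followed after 3 bases by GC, was found in Mt2 as TGACTCAGC from base 79 to 71 and in Slc30a1 on the reverse strand as GCCTTGTCA from base 82 to 74, and 10.2% of windows hold it. A full glucocorticoid response element, searched as GNACA and TGTNC with 3 bases between them, was found in Mt1 as GGACATGATGTTC from base 94 to 82, and 0.387% of windows hold it. A match of letters is a description and no measurement of binding.

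By the mean over libraries, Mt1 and Mt2 were highest in fibroblasts. Over the 10 libraries Mt1 averaged 6050 ± 1330 CPM (SD, n = 10) there, beyond the spread of the next class, skeletal muscle or satellite cells, at 3393 ± 1170 CPM (SD, n = 3). Hair matrix or shaft cells at 3168 ± 1274 CPM (SD, n = 8), basal keratinocytes, pericytes or smooth muscle and Schwann cells followed, and these neighbours did not differ beyond their spread. Mt2 averaged 3132 ± 1309 CPM (SD, n = 10) in fibroblasts, followed by skeletal muscle, hair matrix or shaft cells and basal keratinocytes, at 2943, 2074 and 1745 CPM. Each of these did not differ from its neighbour in the order beyond their spread, and basal keratinocytes lay beyond it from the next class, Schwann cells, at 894.3 CPM. In the 3 libraries with both classes, Mt2 in skeletal muscle or satellite cells was 106% to 138% of the fibroblast level. Mt1 there was 44.1% to 87.4% of it. Fibroblasts thus led for Mt1, and for Mt2 only among the classes seen in all 10 libraries.

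The other members had orders of their own. Mt4 was highest in suprabasal keratinocytes, the differentiating layers of the epidermis, at 148.8 ± 150.6 CPM (SD, n = 7), then in hair matrix or shaft cells at 38.65 ± 65.95 CPM (SD, n = 8) and basal keratinocytes at 10.96 ± 21.54 CPM (SD, n = 10), and the neighbours in this order did not differ beyond their spread. Slc30a1 was highest in endothelial cells at 133.3 ± 27.16 CPM (SD, n = 10), followed by hair matrix or shaft cells at 70.27 ± 63.85 CPM (SD, n = 8) and macrophages or monocytes at 59.4 ± 35.4 CPM (SD, n = 10). Slc39a14 was highest in the skeletal muscle or satellite class, seen in 3 control libraries, at 422.1 ± 121.7 CPM (SD, n = 3), and next in fibroblasts at 276.7 ± 110 CPM (SD, n = 10) and dermal papilla cells at 183.3 ± 109.2 CPM. Mtf1 was low throughout, from 3.817 CPM in neutrophils to 28.82 ± 16.18 CPM (SD) in mast cells, with endothelial cells at 27.12 ± 6.689 CPM (SD, n = 10). Among classes seen in all 10 libraries, Mt1, Mt2 and Slc39a14 were thus each highest in fibroblasts, and Slc30a1 in endothelial cells.

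**Figure D1:**
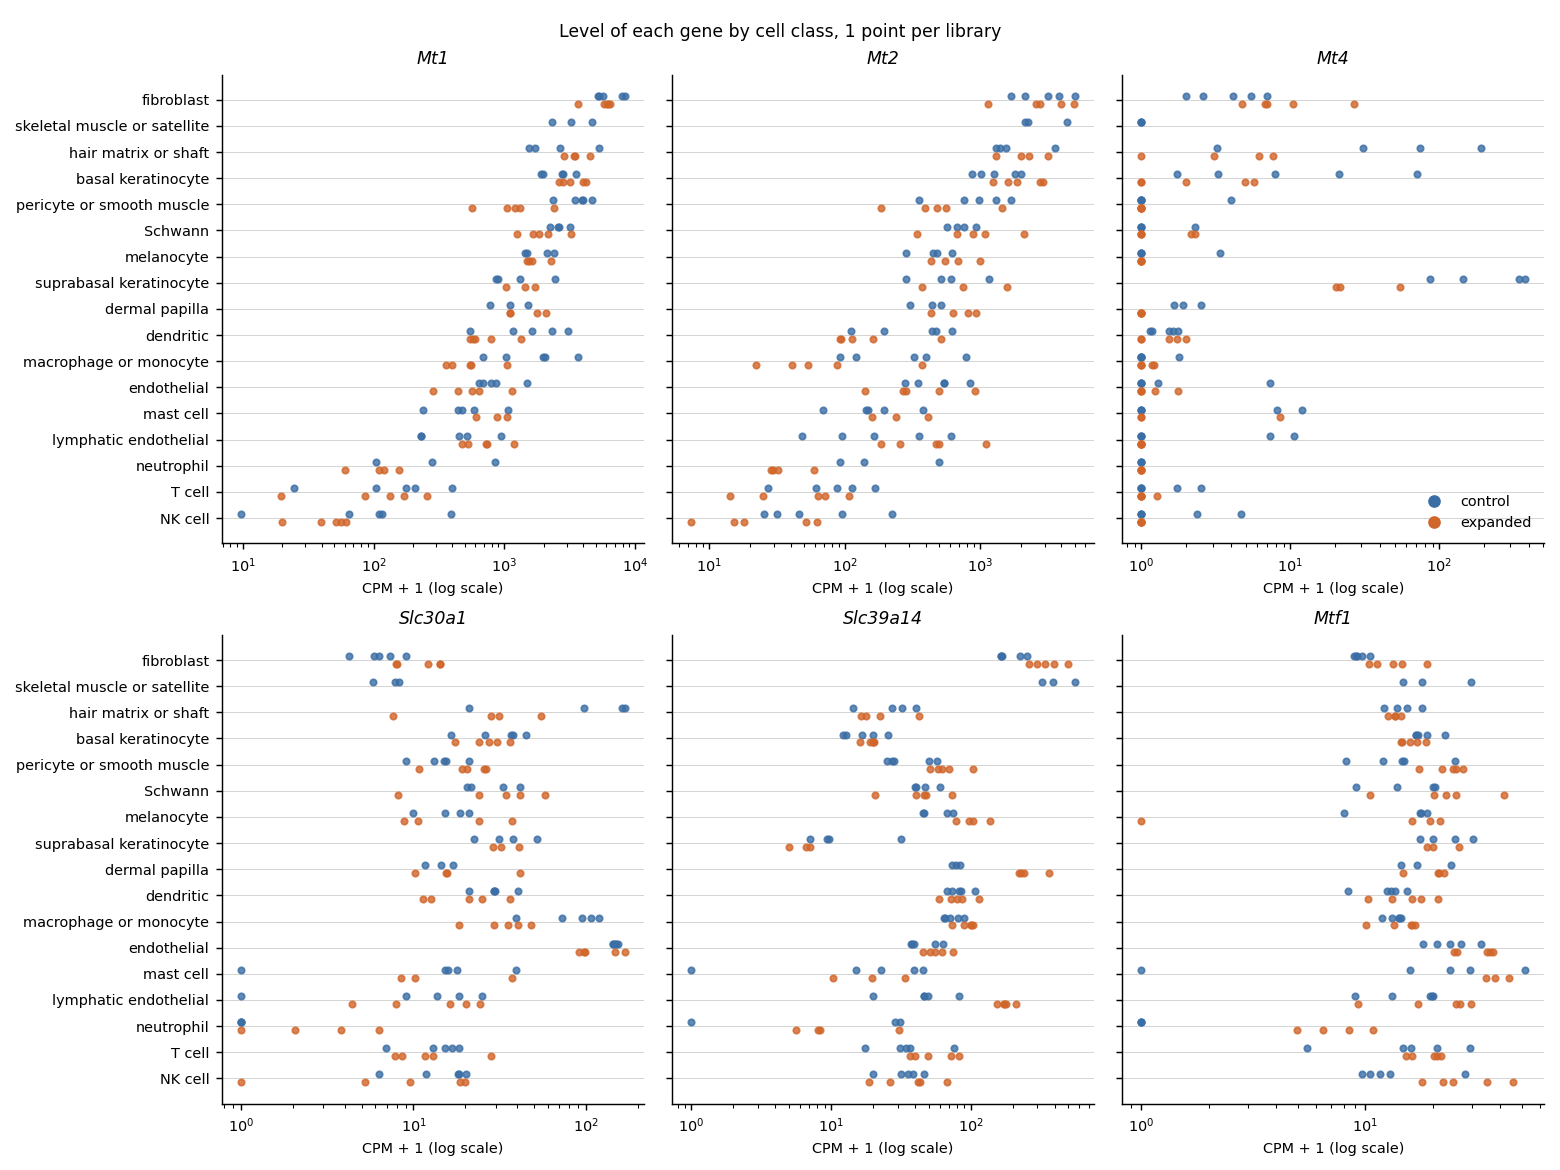
CPM plus 1 on a log axis for each of the 6 genes (panels) in 17 classes, with 1 point per library, blue for control and orange for expanded. Mt1 and Mt2 reach their highest points in fibroblasts, Mt4 in suprabasal keratinocytes and hair matrix or shaft cells, and Slc30a1 in endothelial cells.

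Droplets also hold free RNA, and low levels were read against it. T cells, which are not known for collagen, held Mt1 at a median of 2.72% of the fibroblast level and Col1a1, a fibroblast collagen gene, at 0.554%. In NK cells these shares were 1.03% for Mt1 and 0.604% for Col1a1. The Mt1 shares were 14.5% in macrophages, 40% in pericytes, 11.2% in endothelial and 10.8% in lymphatic endothelial cells, against 0.486%, 4.06%, 0.921% and 1.48% for Col1a1. For Dcn, another fibroblast gene, the shares were 1.15% in NK cells, 0.787% in T cells, 0.584% in macrophages, 2.73% in pericytes, 1.21% in endothelial and 3.58% in lymphatic endothelial cells. Over all libraries the Mt1 share was thus above both in these classes except NK cells, where it lay between them. By arm, the NK medians in controls were 2.06% for Mt1, 1.05% for Col1a1 and 1.93% for Dcn. In expanded libraries they were 0.834%, 0.227% and 0.251%, so that Mt1 was above both within each arm. Whether Mt1 in NK cells is background was not settled by these shares. The part of free RNA in the levels was not otherwise tested.

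Macrophages or monocytes held less Mt1, Mt2 and Slc30a1 in the expanded arm. Mt1 stood at 3645, 1975, 2056, 678.5 and 1028 CPM in the control libraries and at 1048, 552.6, 547.7, 358.3 and 397.9 CPM in the expanded ones. Every round was lower in the expanded arm, and the expanded library of day 1 round 1 lay inside the control range. The log2 ratio of expanded to control, fitted with the day as a term, was -1.77 ± 0.33 (SE). Mt2 stood at 786.9, 396.9, 324.9, 91.11 and 120.1 CPM in controls and at 374.5, 87.43, 52.77, 39.46 and 21.25 CPM in expanded libraries, a log2 ratio of -2.05 ± 0.45 (SE). Again each round was lower in the expanded arm, with the expanded library of day 1 round 1 inside the control range. Slc30a1, the zinc exporter, stood at 106.3, 117.7, 93.81, 38.26 and 71.49 CPM in controls and at 46.81, 28.34, 34.38, 39.46 and 17.46 CPM in expanded libraries, a log2 ratio of -1.49 ± 0.29 (SE). The expanded libraries of day 1 round 1 and day 2 round 2 lay just above the lowest control. The control library of day 2 round 2 was the low one for all 3 genes, and without it the log2 ratios were -1.98 for Mt1, -2.25 for Mt2 and -1.77 for Slc30a1. Slc39a14 and Mtf1 did not share this pattern: their log2 ratios were 0.22 ± 0.13 (SE) and -0.001 ± 0.184 (SE).

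Different clusters made up this class in the 2 arms. Cluster 6, led by the lectin gene Cd209f and the complement genes C1qc and C1qb, held 82.6% of the class in the control arm and 7.52% in the expanded arm. Cluster 7, led by Chil3, Msr1 and Fcgr1, held 17.4% and 92.5%. Within cluster 6 Mt1 stood at 3768, 2074, 2176, 817.2 and 1101 CPM in controls and at 1582, 1226 and 636.4 CPM in the expanded libraries of both day 1 rounds and of day 4, while the day 2 libraries had 7 and 11 cells and gave no level. Slc30a1 in cluster 6 stood at 110.4, 122.8, 98.53, 43.04 and 78.37 CPM in controls and at 65.31, 55.36 and 27.56 CPM in those 3 expanded libraries. In cluster 7 Mt1 ranged from 445.4 to 1248 CPM over 4 control libraries and from 351.7 to 597 CPM over 5 expanded ones, and Slc30a1 from 18.17 to 39.3 CPM and from 16.68 to 39.94 CPM. Slc30a1 thus had nearly the same range in both arms in cluster 7. Within that cluster, fitted over 4 control and 5 expanded libraries, the log2 ratio was -0.52 ± 0.27 (SE) for Mt1, -1.19 ± 0.42 (SE) for Mt2 and -0.06 ± 0.24 (SE) for Slc30a1. All 3 are smaller than over the whole class. In control day 2 round 1, 3 mice with 0 to 10.3% of the class in cluster 7 had Mt1 from 1370 to 3533 CPM, and in control day 2 round 2, 4 mice with 17.5 to 68.2% had 387.1 to 936.5 CPM. The round with more cells of cluster 7 had less Mt1, and within cluster 6 alone Mt1 was also lower there, at 817.2 against 2176 CPM. Among its mice, those with 68.2%, 65%, 64% and 17.5% in cluster 7 had 796.3, 387.1, 400.6 and 936.5 CPM. The part of the clusters in this difference was not tested. The expanded mice of day 2 ranged from 386.4 to 782.6 CPM over 3 mice in round 1 and from 289.7 to 595.8 CPM over 4 mice in round 2.

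**Figure D2:**
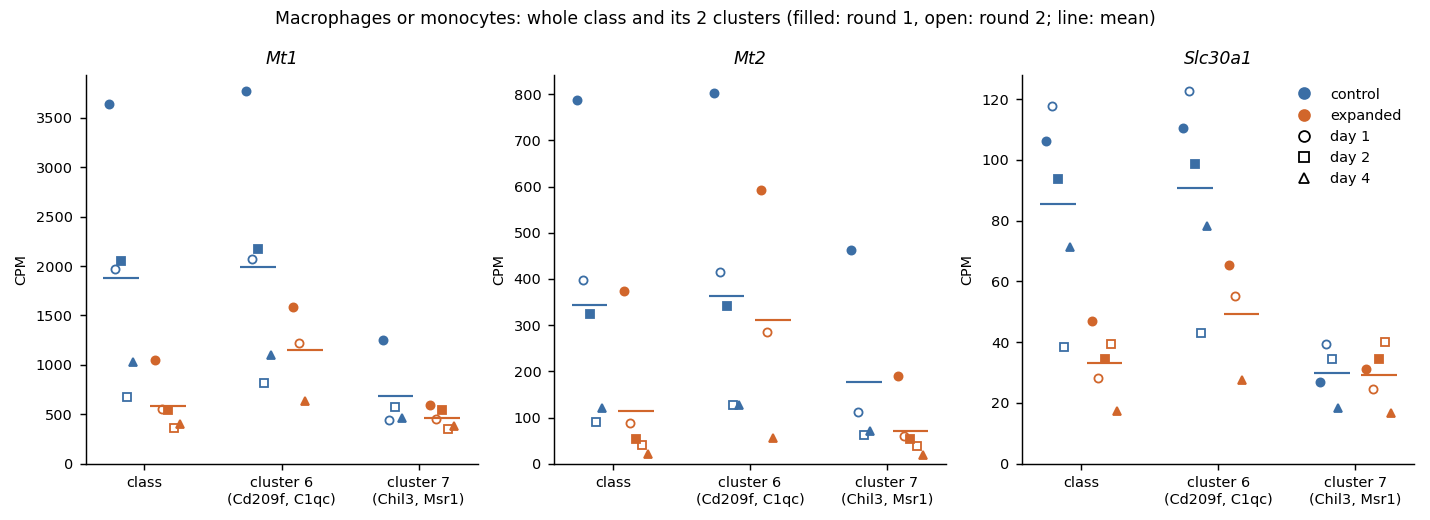
CPM of Mt1, Mt2 and Slc30a1 by library and arm in all macrophages or monocytes and in their clusters 6 and 7, with 1 point per library. Slc30a1 is lower in the expanded arm over the whole class, and within cluster 7 its points overlap, with a log2 ratio of -0.06 ± 0.24 (SE).

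Dendritic cells, which sample antigen in the skin, also had negative log2 ratios for Mt1, Mt2 and Slc30a1. Mt1 stood at 3047, 1612, 2288, 546.7 and 1155 CPM in controls and at 1334, 792.7, 543.2, 575.9 and 593.4 CPM in expanded libraries, a log2 ratio of -1.42 ± 0.35 (SE). The control library of day 2 round 2 lay within the expanded range. Mt2 stood at 615.7, 443.5, 473.8, 110 and 195.2 CPM against 509.7, 159.9, 111.4, 92.61 and 91.04 CPM, a log2 ratio of -1.31 ± 0.41 (SE), which was -0.80 without the control library of day 2 round 1. Slc30a1 stood at 28.28, 39.54, 28.34, 20.06 and 28.66 CPM against 23.92, 35.06, 10.35, 11.58 and 20.11 CPM, a log2 ratio of -0.79 ± 0.22 (SE), with overlapping ranges. In the same cells the summed CPM of 7 fibroblast markers ranged from 170.2 to 4086 in controls and from 43.93 to 223.3 in expanded libraries, all 7 lower and none at 0. In macrophages that sum ranged from 332.3 to 4448 against 32.84 to 484.5, with 6 of 7 markers lower. In fibroblasts themselves the sum ranged from 74770 to 189300 CPM in controls and from 33340 to 87300 CPM in expanded libraries, 6 of 7 lower. A lower sum in another class therefore does not measure the amount of fibroblast RNA alone. The part of fibroblast RNA in the differences of Mt1 and Mt2 was not tested.

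In the vessel wall, Mt1 was lower in the expanded arm. In pericytes or smooth muscle, the contractile cells around vessels, Mt1 stood at 4670, 3922, 3470, 2337 and 3952 CPM in controls and at 2375, 1199, 1322, 1041 and 567.1 CPM in expanded libraries, a log2 ratio of -1.69 ± 0.27 (SE). The expanded library of day 1 round 1 was the single one above the lowest control, by a small margin. Mt2 stood at 1683, 1309, 989, 353.7 and 758.5 CPM against 1453, 561.7, 478.5, 390.8 and 183.3 CPM, a log2 ratio of -0.99 ± 0.34 (SE), and its ranges overlapped. The 7 fibroblast markers summed to 653.8 to 25000 CPM in control pericytes and to 1011 to 15200 CPM in expanded ones, 6 of 7 lower, and their part was not tested.

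In endothelial cells Mt1 stood at 1494, 787.1, 866.3, 678.2 and 636.7 CPM in controls and at 1142, 633.6, 442.7, 558.6 and 281.5 CPM in expanded libraries, lower in each round, a log2 ratio of -0.75 ± 0.22 (SE). Slc30a1 was steady in control endothelium, at 143.6, 148.9, 143.6, 151.6 and 146.4 CPM. In expanded endothelium it stood at 167 and 146.2 CPM at day 1 and at 90.82, 98.07 and 96.83 CPM at days 2 and 4, so that the later libraries lay below all controls and the day 1 libraries did not. The log2 ratio over all days was -0.43 ± 0.14 (SE), and within cluster 10, the larger of the endothelial clusters, it was -0.59 ± 0.13 (SE). Fibroblast markers moved here too, from 1030 to 2218 CPM in controls and from 24.16 to 2365 CPM in expanded libraries, 7 of 7 lower, and their part was not tested.

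In lymphatic endothelial cells both metallothioneins had positive log2 ratios. Mt1 stood at 942.1, 447.1, 229.1, 227.8 and 518.4 CPM in controls and at 1172, 738.2, 526.2, 716.3 and 473 CPM in expanded libraries, a log2 ratio of 0.61 ± 0.26 (SE), higher in each round but that of day 4. Mt2 stood at 605.1, 354.8, 47.73, 94.32 and 164.7 CPM against 1106, 470.7, 257.2, 499.1 and 183 CPM, a log2 ratio of 1.02 ± 0.33 (SE), higher in each round with overlapping ranges. The fibroblast markers summed to 1174 to 14330 CPM in controls and 97.82 to 10470 CPM in expanded libraries, 6 of 7 lower. These markers were lower in fibroblasts too, and their part was not tested.

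Fibroblasts themselves differed little in Mt1. It stood at 7918, 5299, 8326, 5679 and 5224 CPM in controls and at 6111, 6353, 6176, 5738 and 3673 CPM in expanded libraries, a log2 ratio of -0.47 ± 0.18 (SE), and the ranges overlapped. Mt2 stood at 5041, 3195, 3837, 2158 and 1689 CPM against 4939, 3941, 2579, 2791 and 1154 CPM, a log2 ratio of -0.38 ± 0.21 (SE). The fibroblast class, too, was made of different clusters in the 2 arms: cluster 4 held 51.6% of it in controls and 9.27% in the expanded arm, cluster 5 held 21.5% and 44.4%, cluster 3 held 8.03% and 29.4%, and cluster 2 held 18.8% and 16.9%. Within cluster 5, led by Igfbp2, Cadps and Mme, the log2 ratio of Mt1 was 0.29 ± 0.17 (SE), and within cluster 3, led by Tnc, Ccl19 and Saa3, it was -0.43 ± 0.20 (SE). The log2 ratio of Mt1 in fibroblasts thus had opposite signs in clusters 5 and 3.

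Basal keratinocytes, named from markers such as Krt5, Krt14 and Krt15, held Mt1 at 3502, 1976, 2821, 1897 and 2730 CPM in controls and at 4206, 2621, 3163, 4004 and 2815 CPM in expanded libraries, a log2 ratio of 0.33 ± 0.19 (SE). Each round was higher in the expanded arm, and the ranges overlapped. Mt2 stood at 1825, 1266, 2020, 865.9 and 1010 CPM against 2941, 1599, 1892, 2781 and 1251 CPM, a log2 ratio of 0.52 ± 0.23 (SE). The class was made of cluster 14, led by Krt24, Lhx2 and Krt15, genes known from the hair follicle, with 54.3% of it in controls and 62% in the expanded arm, and cluster 12, led by Fgfbp1, Apoc1 and Clca3a2, with 45.7% and 38%. Within cluster 14 the log2 ratios were 0.77 ± 0.24 (SE) for Mt1 and 1.05 ± 0.27 (SE) for Mt2, and within cluster 12 they were -0.11 and 0.17. Schwann cells had 2222, 2616, 2584 and 3158 CPM of Mt1 in the last 4 control libraries and 3234, 2152, 1654, 1846 and 1240 CPM in the expanded ones, a log2 ratio of -0.56 ± 0.25 (SE). Log2 ratios of Mt1 in melanocytes, hair matrix or shaft cells and T cells were -0.13, 0.36 and -0.56, all with overlapping ranges. NK cells, where background was not settled for Mt1 above, held Mt2 at 221.3, 94.79, 30.44, 24.31 and 45.33 CPM in controls. Their expanded libraries had 61.14, 50.63, 14.08, 6.346 and 16.9 CPM, a log2 ratio of -1.54 ± 0.31 (SE). Fibroblast markers there stood at 713.2 to 2449 CPM and 19.04 to 1969 CPM, 7 of 7 lower, and their part was not tested.

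**Figure D3:**
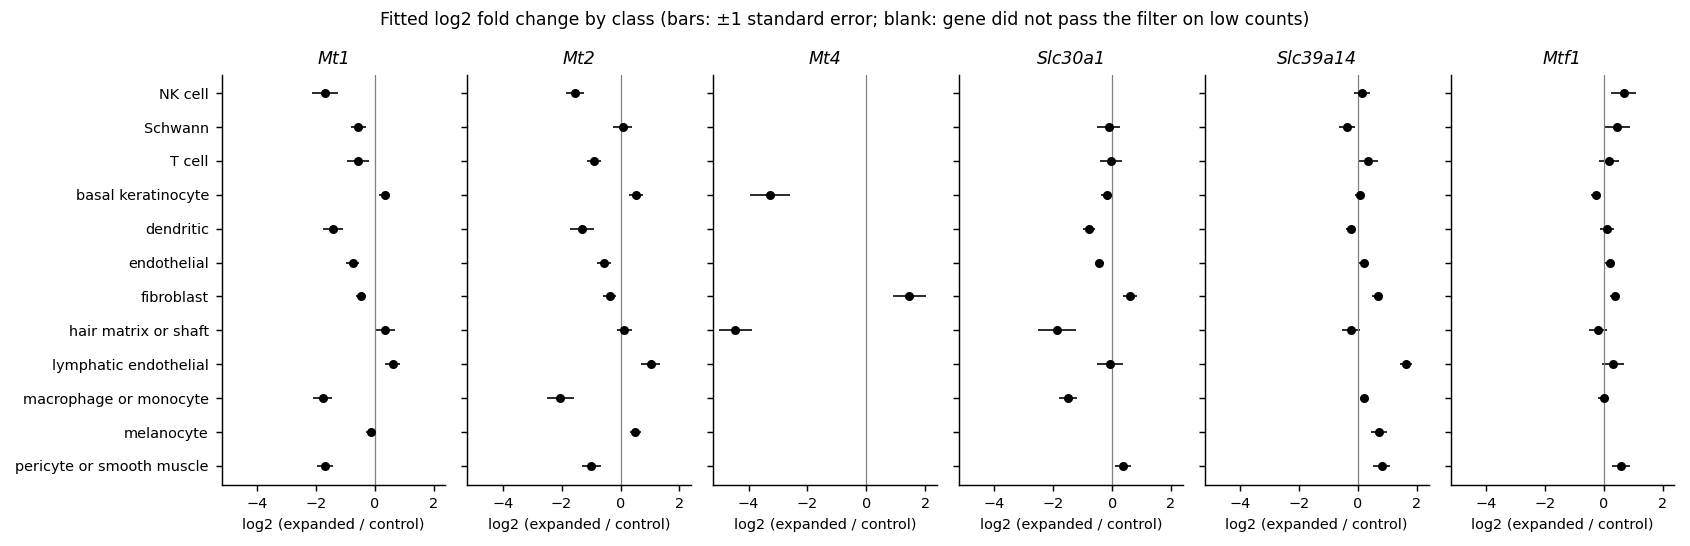
Log2 ratio of expanded to control for each gene (panels) in 12 classes, with bars of 1 SE around each point; a blank means that the gene did not pass the filter on low counts in that class. Mt1 points lie lowest in macrophages, NK cells and pericytes, and Slc39a14 points lie highest in lymphatic endothelial cells, at 1.64 ± 0.20.

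Mt2 responds to many of the same signals as Mt1, and the ratio of the 2 messengers was lower at later days in both arms. In control fibroblasts there were 60.29 to 63.66 Mt2 UMIs per 100 Mt1 UMIs at day 1, 37.99 to 46.09 at day 2 and 32.33 at day 4. In expanded fibroblasts the values were 62.03 to 80.83, 41.76 to 48.64 and 31.41, lowest at day 4 in both arms. In single mice the control values were 57.07 to 65.84 over 3 mice at day 1, 34.24 to 52.17 over 7 mice at day 2 and 28.8 to 37.39 over 4 mice at day 4. Each day 1 library lay above the day 4 library in 13 of 14 classes in the control arm and in 14 of 14 in the expanded arm. Some of these classes had only 1 library at day 1. They were Schwann and skeletal muscle or satellite cells in controls, neutrophils in the expanded arm, and dermal papilla cells and melanocytes in both. In skeletal muscle or satellite cells the values were close, at 95.43 and 92.52, with 70.2 at day 2. Between day 1 and day 2 the values separated less: with 4 libraries, each day 1 library lay above each day 2 library in 3 of 6 classes in controls and in 5 of 8 in the expanded arm. Day 4 had 1 library per arm, so the last point has no replicate, and the classes of 1 library share their cells' source.

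The arms differed in this ratio in some classes. In pericytes or smooth muscle it was 33.38 to 36.03 at day 1, 15.13 to 28.5 at day 2 and 19.19 at day 4 in controls, and 46.86 to 61.16, 36.18 to 37.53 and 32.32 in the expanded arm, higher in the expanded library in 5 of 5 rounds. Mt2 thus made up more of the pair in expanded pericytes, while both log2 ratios there were negative. In macrophages the order was the other one: 20.09 to 21.59, 13.43 to 15.8 and 11.69 in controls against 15.82 to 35.74, 9.635 to 11.01 and 5.339 in the expanded arm, higher in 1 of 5 rounds. Single mice gave 7.213 to 15.27 over 4 control mice and 4.356 to 6.931 over 4 expanded mice for macrophages at day 4. Dendritic cells were higher in the expanded library in 1 of 5 rounds, Schwann cells and melanocytes in 4 of 4, and dermal papilla cells in 3 of 3.

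**Figure D4:**
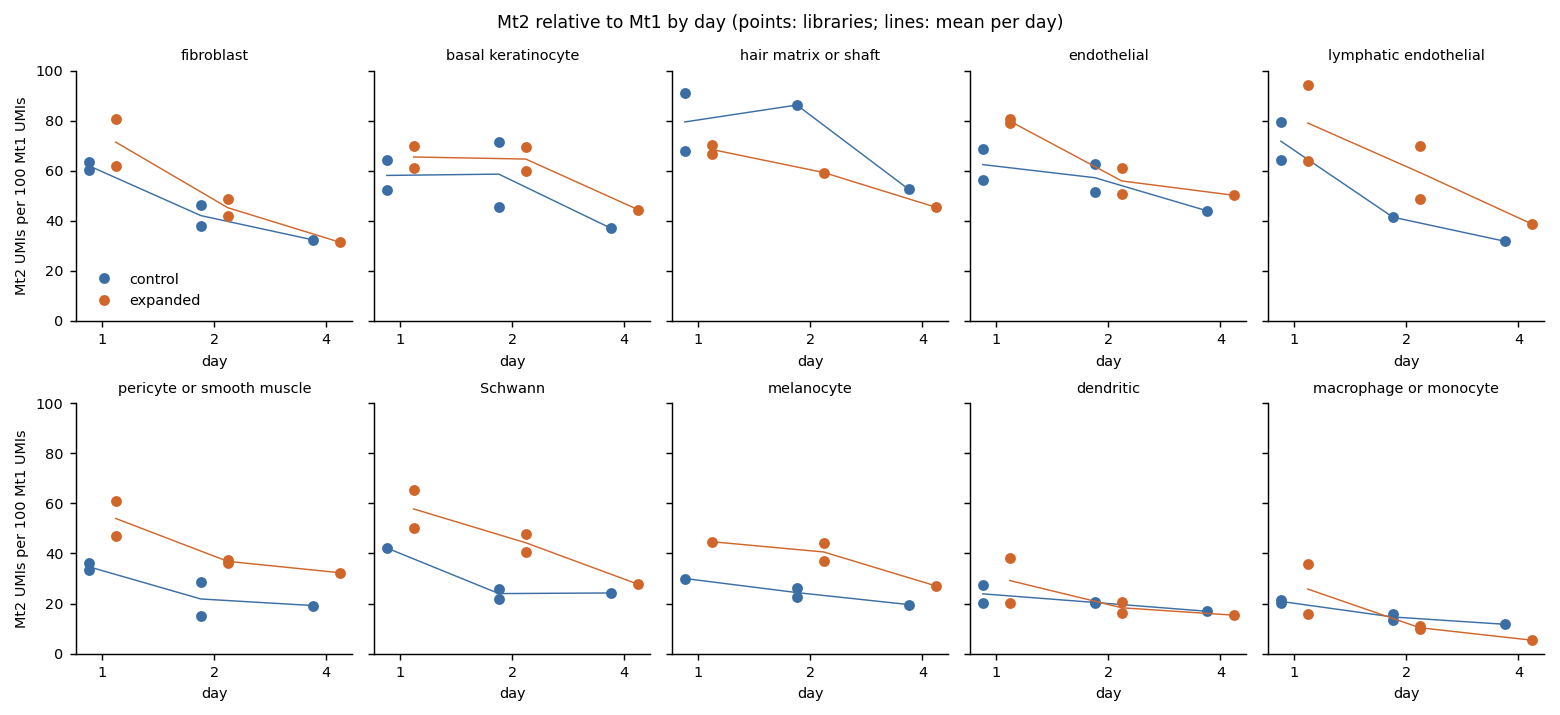
Mt2 UMIs per 100 Mt1 UMIs by day in 10 classes, with 1 point per library and lines through the mean of each day, blue for control and orange for expanded. In fibroblasts both lines run from over 60 at day 1 to near 32 at day 4, and in pericytes the expanded line lies above the control line at each day.

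Mt4, the epidermal metallothionein, was lower in the expanded arm in suprabasal keratinocytes and, apart from 1 control library, in hair matrix or shaft cells. In suprabasal keratinocytes it stood at 344, 375.9, 85.28 and 143.2 CPM in the control libraries of day 1 round 1, day 1 round 2, day 2 round 2 and day 4, from 438, 539, 36 and 71 UMIs. The expanded libraries of both day 1 rounds and of day 4 had 19.28, 53.36 and 20.65 CPM, from 16, 161 and 26 UMIs. Each expanded library lay below each control library, as it did for 3.62% of genes with at least 10 UMIs in this class, and no fit was made because fewer than 4 expanded libraries had enough cells. These UMIs came from few cells, 15, 56, 4 and 13 in controls and 6, 20 and 2 in expanded libraries. A single cell held 134 of 438 UMIs in control day 1 round 1, and another 24 of 26 in expanded day 4. In hair matrix or shaft cells Mt4 stood at 73.55, 29.72, 2.219 and 189.8 CPM in controls, from 118, 60, 1 and 355 UMIs, and at 6.639, 2.084, 0 and 5.162 CPM in expanded libraries, from 4, 1, 0 and 7 UMIs. The control library of day 2 round 2 lay within the expanded range, and the fitted log2 ratio was -4.44 ± 0.55 (SE), from -5.06 to -3.58 with 1 library left out. The UMIs came from 10, 19, 1 and 31 cells in controls and from 4, 1, 0 and 2 cells in expanded libraries.

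In basal keratinocytes Mt4 stood at 69.82, 20.25, 2.251, 0.7275 and 6.897 CPM in controls, from 266, 86, 1, 3 and 23 UMIs. The expanded libraries had 4.711, 1.002, 0, 0 and 3.925 CPM, from 55, 15, 0, 0 and 29 UMIs, and the fitted log2 ratio was -3.28 ± 0.68 (SE), from -4.12 to -2.27 with 1 library left out. These values rest on very few cells: the 266 UMIs of control day 1 round 1 came from 3 of 310 cells, 248 of them from 1 cell, and in control day 1 round 2 a single cell held 72 of 86. In expanded day 1 round 1 a single cell held 40 of 55 UMIs, and in expanded day 4 another held 28 of 29. No difference between the arms is read from this class. Summed per tagged mouse, without the untagged libraries of day 1 round 1, the log2 ratio was -0.08. Mice of day 1 ranged from 5.12 to 13.2 CPM over 3 control mice and from 0 to 4.78 CPM over 3 expanded ones, and mice of day 4 from 0 to 3.65 CPM over 3 control and from 0 to 20.1 CPM over 3 expanded ones. The order of the arms thus differed between the days. In fibroblasts, where Mt4 was low, it stood at 0.994, 5.986, 4.458, 1.588 and 3.12 CPM in controls and at 5.946, 25.77, 9.426, 3.759 and 5.726 CPM in expanded libraries, a log2 ratio of 1.46 ± 0.56 (SE). Without the expanded library of day 1 round 2 that ratio was 0.83.

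Slc30a1 in other classes gave less. In hair matrix or shaft cells it stood at 160.2, 167.4, 19.97 and 96.75 CPM in controls and at 6.639, 27.09, 53.9 and 30.23 CPM in expanded libraries, a log2 ratio of -1.86 ± 0.64 (SE). The low control, of day 2 round 2, lay inside the expanded range. In fibroblasts, which hold little of it, Slc30a1 stood at 5.269, 6.344, 3.205, 8.017 and 4.902 CPM against 13.26, 11.11, 7.07, 13.16 and 6.872 CPM, a log2 ratio of 0.61 ± 0.23 (SE), higher in each round with overlapping ranges. Slc30a1 overlaps an antisense gene, 1700034H15Rik, and Mt2 another, Gm45774.

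By CPM, Slc39a14 was higher in each expanded library than in each control library in fibroblasts, lymphatic endothelial cells, melanocytes and dermal papilla cells. In fibroblasts it stood at 163.7, 224.7, 163.7, 253.2 and 166.6 CPM in controls and at 261.1, 497.9, 299.5, 395.9 and 341.0 CPM in expanded libraries, a log2 ratio of 0.67 ± 0.18 (SE). Each expanded library lay above each control library, as it did for 15.8% of the genes tested in fibroblasts, while 4.5% lay wholly below. CPM hold no normalization factors (TMM), unlike the fits, which called 2188 genes higher and 2165 lower here. The lowest expanded and highest control libraries were close, at 261.1 and 253.2 CPM, and in melanocytes at 77.87 and 73.77 CPM. In lymphatic endothelial cells it stood at 45.12, 48.28, 19.09, 81.67 and 45.08 CPM against 176.7, 152.3, 172.6, 211.2 and 172.6 CPM, a log2 ratio of 1.64 ± 0.20 (SE). The arms did not overlap here, as for 6.83% of genes with that direction, and the control library of day 2 round 1 rested on 2 UMIs in 28 cells. Melanocytes had 66.59, 44.43, 73.77 and 45.02 CPM in the last 4 control libraries and 136.6, 96.53, 77.87 and 102.2 CPM in the expanded ones, a log2 ratio of 0.71 ± 0.26 (SE), again without overlap, as for 3.58% of genes. In dermal papilla cells, the mesenchymal cells at the base of the hair follicle, 77.98, 72.5 and 82.96 CPM in 3 control libraries stood against 221, 227.7, 240.4 and 360.7 CPM in 4 expanded ones, without overlap, as for 4.93% of genes with at least 10 UMIs, and no fit was made.

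Within single fibroblast clusters the order of the arms was kept in part. In cluster 2, led by Cilp, Rbp4 and Lox, Slc39a14 ranged from 130.6 to 187.1 CPM over 5 control libraries and from 241.2 to 379.1 CPM over 3 expanded ones, without overlap, as for 10.4% of genes. In cluster 5 the ranges were 96.95 to 163.7 CPM and 224.3 to 414.5 CPM, without overlap, as for 5.86% of genes, and the log2 ratio was 1.19 ± 0.19 (SE). In cluster 3 they were 251 to 435.6 CPM over 4 control libraries and 370.5 to 648.4 CPM over 5 expanded ones, which overlapped, with a log2 ratio of 0.29 ± 0.20 (SE). In cluster 4 they were 166.6 to 267.4 CPM over 5 control and 189.1 to 416.3 CPM over 2 expanded libraries, and these overlapped too. Single mice overlapped at day 2 and not at day 4. At day 2, 7 control mice ranged from 135.7 to 435.6 CPM and 3 expanded mice from 255.3 to 446.2 CPM. At day 4, 4 control mice ranged from 163.8 to 204.4 CPM and 3 expanded mice from 241.2 to 461.9 CPM.

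In pericytes or smooth muscle Slc39a14 stood at 49.18, 56.78, 24.32, 27.28 and 26.2 CPM in controls and at 50.48, 57.74, 60.9, 68.39 and 102.3 CPM in expanded libraries, a log2 ratio of 0.80 ± 0.28 (SE). The arms were alike at day 1 and apart at days 2 and 4. Macrophages had 70.57, 80.33, 63.22, 89.06 and 64.11 CPM against 102.6, 99.18, 88.86, 99.44 and 72.56 CPM, higher in each round with overlap. Within its clusters this order was not seen: in cluster 6 the control libraries ranged from 51.85 to 78.33 CPM and 3 expanded ones from 42.59 to 65.31 CPM, and in cluster 7 the log2 ratio was -0.12 ± 0.18 (SE). Endothelial cells had 37.03, 54.54, 36.3, 62.06 and 38.48 CPM against 73.64, 61.21, 44.54, 49.75 and 54.26 CPM, a log2 ratio of 0.19. In dendritic cells, basal keratinocytes, Schwann cells and hair matrix or shaft cells the log2 ratios were -0.24, 0.06, -0.37 and -0.25. Of the 2 kinds of vessel lining, the lymphatic one showed the wider gap in these libraries, and the difference between them was not tested.

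**Figure D5:**
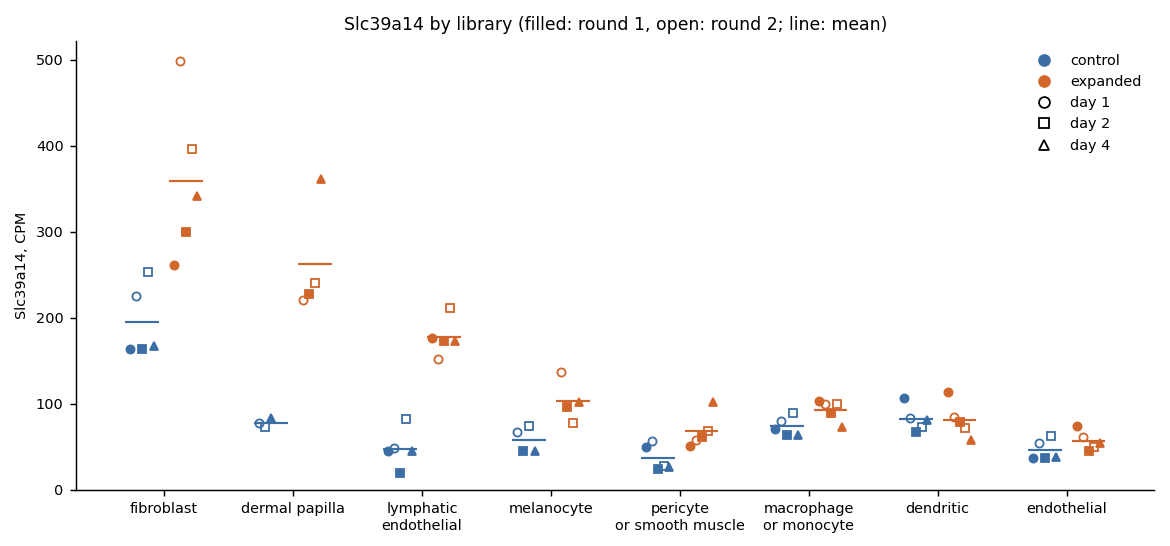
Slc39a14 CPM by library and arm in 8 classes, with the shape of a point for the day, filled points for round 1, open points for round 2 and a line at the mean. The arms do not overlap in fibroblasts, lymphatic endothelial cells, melanocytes and dermal papilla cells.

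Mtf1, the zinc sensor itself, was low and differed little. In fibroblasts it stood at 7.903, 9.471, 8.081, 8.698 and 8.184 CPM in controls and at 13.57, 17.88, 12.29, 9.397 and 10.31 CPM in expanded libraries, a log2 ratio of 0.37 ± 0.15 (SE). Each round was higher in the expanded arm, most at day 1. Macrophages had 12.17, 13.12, 10.88, 13.44 and 13.14 CPM against 9.024, 12.44, 15.71, 15.05 and 15.12 CPM. Endothelial cells had 17.16, 25.79, 19.8, 31.99 and 22.85 CPM against 23.91, 36.04, 34.93, 34.11 and 24.58 CPM, a log2 ratio of 0.22. In pericytes its log2 ratio was 0.60 ± 0.30 (SE). Mtf1 overlaps 1110065P20Rik on the opposite strand.

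The 6 genes gave 60 pairs of gene and class that passed the filter on low counts in 12 fitted classes, and 13 of them passed an adjusted p of 0.05 in edgeR's quasi-likelihood test, in 9 classes. With the replicate block, which pairs the arms of a round, 21 passed. As the genes were chosen with this contrast known, nothing is read from the count. It stands beside the share of all tested genes that passed in the same class. That share was 33.4% in fibroblasts, 24.3% in macrophages or monocytes, 16.2% in dendritic cells, 15.7% in pericytes or smooth muscle, 12.3% in basal keratinocytes, 10.7% in endothelial and 10.3% in lymphatic endothelial cells. It was 1.81% in hair matrix or shaft cells, 1.56% in melanocytes, 0.475% in NK cells, 0.355% in Schwann cells and 0.194% in T cells.

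The other genes of zinc handling were tested as a list of 24, the remaining exporters of the Slc30 family, the importers of the Slc39 family, Mt3 and Tmem163. In 144 tests over 12 classes 8 were higher and 9 lower in the expanded arm by edgeR at an adjusted p of 0.05, in 6 classes, and 5 of the 17 passed again whichever library was left out. In fibroblasts 2 of 15 tested rose and 4 fell, against the 33.4% of all genes, and the median log2 ratio of the list was -0.14 against 0.02 for all genes. Slc39a7, which releases zinc from the endoplasmic reticulum, fell from 133.7 ± 18.71 to 110.2 ± 11.28 CPM (SD, n = 5 each), with an edgeR adjusted p of 0.0061, and was lower in 5 of 5 rounds. The importer family member Slc39a11 fell from 9.317 ± 1.42 to 6.99 ± 1.382 CPM (adjusted p = 0.011, edgeR), lower in 5 of 5 rounds, and the exporter Slc30a4 fell from 49.14 ± 7.808 to 42.74 ± 10.4 CPM (adjusted p = 0.0118, edgeR), lower in 4 of 5. These 3 passed in every run that left 1 library out. Within fibroblast clusters 3 and 5, fitted alone, where 22.2% and 18.2% of genes passed, they did not pass. Slc30a4 had log2 ratios of -0.39 and -0.34 there, against -0.44 over the class (adjusted p = 0.143 and 0.12). Slc39a11 had -0.81 and -0.23 against -0.65 (adjusted p = 0.239 and 0.608), and Slc39a7 had -0.14 and -0.24 against -0.51 (adjusted p = 0.558 and 0.231). Slc39a1, an importer at the plasma membrane, rose from 95.46 ± 10.95 to 147.9 ± 24.6 CPM (adjusted p = 0.0206, edgeR, from 0.0118 to 0.069 with 1 library left out), higher in 5 of 5 rounds, and its adjusted p was 0.0463 within cluster 5 and 0.303 within cluster 3.

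Mt3, the metallothionein best known from the brain, lies between Mt4 and Mt2 and was highest in Schwann cells, at 107.3 CPM. In fibroblasts it stood at 2.842, 1.698, 0.5573, 1.74 and 2.35 CPM in controls and at 9.605, 24.64, 10.77, 2.506 and 0.2863 CPM in expanded libraries. The first 3 expanded libraries lay above all controls and that of day 4, with 1 UMI, below them. The log2 ratio was 1.98 ± 0.62 (SE) with an edgeR adjusted p of 0.0284, which ranged from 0.00291 to 0.121 with 1 library left out and was 0.0628 with the replicate block. Within cluster 5 the log2 ratio was 2.81 (adjusted p = 0.00795, edgeR) and within cluster 3 it was 1.52 ± 0.88 (SE; adjusted p = 0.239). Slc30a5, named after its values were seen, fell in fibroblasts with an adjusted p of 0.0482 and had 0.063 with the block.

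In macrophages or monocytes 1 zinc gene of 16 tested rose and 3 fell, against the 24.3% of all genes, and the list's median log2 ratio was 0.07 against 0.01. Slc30a4 fell from 13.75 ± 5.508 to 4.829 ± 5.204 CPM (SD, n = 5 each; adjusted p = 0.00678, edgeR) and the importer Slc39a10 from 30.85 ± 3.416 to 19.47 ± 6.648 CPM (adjusted p = 0.00915, edgeR), each lower in 5 of 5 rounds and in every run with 1 library left out. Within cluster 7, where 0.279% of genes passed, Slc30a4 had a log2 ratio of -1.68 against -2.13 over the class, with an adjusted p of 0.278. Slc39a10 had -0.23 against -0.81 (adjusted p = 0.865), and Slc30a7, which rose over the class (adjusted p = 0.0394, edgeR), had 0.16 against 0.50 (adjusted p = 0.916). Elsewhere the calls passed in at most 4 runs with 1 library left out. Among them, Slc39a1 rose in pericytes from 83.88 ± 10.7 to 134.5 ± 21.8 CPM (adjusted p = 0.0319, edgeR) and in basal keratinocytes from 45.51 ± 6.239 to 64.36 ± 13.53 CPM (adjusted p = 0.043, edgeR), higher in 5 of 5 rounds in both. In hair matrix or shaft cells Slc39a10 fell from 184.1 ± 106.1 to 44.34 ± 15.39 CPM (SD, n = 4 each; adjusted p = 0.0307, edgeR).

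Signals that are known to act on Mt1, Mt2 or Slc39a14 were read through lists of their target and pathway genes. Of 115 tests of 10 glucocorticoid genes, the receptor gene Nr3c1 among them, 4 were higher and 24 lower. Of these 28, 17 passed in every run with 1 library left out. In fibroblasts 6 of 10 fell and 0 rose, against the 33.4% of all genes, with a median log2 ratio of -0.54 against 0.02 for all genes: Cebpd fell from 1113 ± 130 to 664.6 ± 71.7 CPM (SD, n = 5 each; adjusted p = 0.000361, edgeR) and Klf9 from 830.4 ± 84.61 to 612.2 ± 103.9 CPM (adjusted p = 0.00125, edgeR), each lower in 5 of 5 rounds. Both passed within clusters 3 and 5 too, with adjusted p from 0.00124 to 0.0176. The others that fell passed in only 1 of these clusters. In clusters 3 and 5 the adjusted p (edgeR) was 0.0746 and 0.0344 for Errfi1 and 0.00224 and 0.248 for Tsc22d3. It was 0.022 and 0.192 for Zbtb16, and 0.0123 and 0.122 for Nr3c1, which was named after its values were seen. Cebpd also fell in pericytes, from 680.2 ± 133.4 to 339.7 ± 54.75 CPM (adjusted p = 0.00179, edgeR). Fkbp5, another target of the glucocorticoid receptor, went against the list: it rose in lymphatic endothelial cells from 14.12 ± 6.05 to 51.38 ± 16.85 CPM (adjusted p = 0.00174, edgeR) and in endothelial cells from 21.85 ± 4.478 to 50.16 ± 9.068 CPM (adjusted p = 0.00305, edgeR). In macrophages 1 of 10 rose and 4 fell, against the 24.3% of all genes. Sgk1 rose from 49.62 ± 17.91 to 138 ± 61.95 CPM (adjusted p = 0.00597, edgeR), higher in 5 of 5 rounds. Cebpd and Klf9 fell there with adjusted p of 0.00406 and 0.00591 and log2 ratios of -0.96 and -0.95. Within cluster 7 the log2 ratios were 0.26 for Sgk1, -0.05 for Cebpd and -0.16 for Klf9 (adjusted p = 0.829, 0.99 and 0.895).

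The list of 11 genes of interleukin 6 and STAT3 signalling, to which Slc39a14 is known to respond in liver, gave 17 higher and 19 lower calls in 103 tests. In fibroblasts 3 of 11 rose and 2 fell, against the 33.4% of all genes. Those that rose were the acute-phase genes Lcn2, from 2.318 ± 2.733 to 105.6 ± 118.7 CPM (SD, n = 5 each; adjusted p = 0.000399, edgeR), Hp, from 1.021 ± 1.925 to 33.13 ± 60.8 CPM (adjusted p = 0.000154, edgeR), and Saa3, from 226.2 ± 261.8 to 1513 ± 780.9 CPM (adjusted p = 0.017, edgeR). All 3 were higher in 5 of 5 rounds. The rise of Lcn2 was not particular to fibroblasts. It rose in macrophages from 2.18 ± 2.402 to 59.34 ± 39.44 CPM (adjusted p = 0.00097, edgeR). In endothelial cells it rose from 7.632 ± 4.11 to 127.9 ± 208.6 CPM (adjusted p = 0.0344, edgeR). The part of free RNA in these levels was not tested. Within cluster 5, where Slc39a14 did not overlap between the arms, the adjusted p was 0.000113 for Lcn2 and 0.0148 for Saa3, and within cluster 3 it was 0.0057 and 0.0264. The receptor gene Il6ra fell from 77.42 ± 13.72 to 42.88 ± 17.31 CPM (adjusted p = 0.000312, edgeR). In lymphatic endothelial cells, where Slc39a14 had its widest gap, 2 of 9 rose and 2 fell, against 10.3% of all genes. Lcn2 rose from 454.3 ± 185.4 to 1402 ± 1026 CPM (adjusted p = 0.00296, edgeR), while Il6 itself fell from 57.99 ± 48.93 to 7.456 ± 7.5 CPM (adjusted p = 0.000623, edgeR). Socs3 fell too, from 914.5 ± 202.8 to 623.6 ± 93.81 CPM (adjusted p = 0.0424, edgeR), and passed in 1 of 10 runs with 1 library left out. In pericytes 3 of 10 rose and 3 fell, against 15.7% of all genes. The co-receptor gene Il6st rose from 234.3 ± 50.3 to 533.5 ± 59.15 CPM (adjusted p = 0.00149, edgeR). Lcn2 rose from 0.3985 ± 0.891 to 50.75 ± 50.99 CPM (adjusted p = 0.00109, edgeR) and Saa3 from 5.408 ± 6.093 to 31.6 ± 42.68 CPM (adjusted p = 0.0305, edgeR). Socs3 fell there from 762.6 ± 72.03 to 521.3 ± 113.3 CPM (adjusted p = 0.007, edgeR) and Osmr from 256.1 ± 82 to 140.2 ± 19.94 CPM (adjusted p = 0.0123, edgeR). The list thus moved in both directions in these classes.

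Iron is the other metal that Slc39a14 carries. Of 119 tests of 14 iron genes 4 were higher and 12 lower. Of the 14 tested in fibroblasts 2 rose and 1 fell, against the 33.4% of all genes. In fibroblasts the heme-degrading enzyme Hmox1 rose from 60.13 ± 3.626 to 199.6 ± 62.4 CPM (SD, n = 5 each; adjusted p = 0.000471, edgeR) and the metalloreductase Steap4 from 18.81 ± 5.032 to 57.45 ± 17.66 CPM (adjusted p = 0.000592, edgeR). Steap3 fell there from 89.95 ± 11.86 to 66.67 ± 23.69 CPM (adjusted p = 0.0107, edgeR), lower in 5 of 5 rounds. Hmox1 and Steap3 passed within clusters 3 and 5. Steap4 passed within cluster 5 and not within cluster 3, where its adjusted p was 0.492. In lymphatic endothelial cells 2 of 8 rose and 1 fell, against 10.3% of all genes. The ferritin heavy chain gene Fth1 rose there from 8809 ± 653.6 to 15910 ± 1726 CPM (adjusted p = 0.00391, edgeR). In macrophages 5 of 12 fell and 0 rose, against the 24.3% of all genes. Those that fell included ceruloplasmin, Cp, from 36.23 ± 18.13 to 1.868 ± 2.181 CPM (adjusted p = 0.00132, edgeR), Hmox1 from 1709 ± 922.4 to 406.8 ± 51.17 CPM (adjusted p = 0.00663, edgeR) and the transferrin receptor gene Tfrc from 225 ± 137.2 to 67.95 ± 45.08 CPM (adjusted p = 0.0102, edgeR). Within cluster 7 the log2 ratio was -0.14 for Hmox1 (adjusted p = 0.943) and 0.28 for Tfrc (adjusted p = 0.901), against -2.18 and -1.93 over the class.

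Of 93 tests of 9 copper genes 5 were higher and 3 lower. Of the 8 tested in macrophages 4 rose and 0 fell, against the 24.3% of all genes. In macrophages the copper importer Slc31a1 rose from 64.77 ± 12.63 to 108.8 ± 17.94 CPM (SD, n = 5 each; adjusted p = 0.0125, edgeR), a log2 ratio of 0.63, and within cluster 7, where few genes passed, the ratio was 0.70 ± 0.18 (SE) with an adjusted p of 0.142. The others that rose had smaller log2 ratios within cluster 7 than over the class. Atox1 had -0.16 against 0.68, Cox17 -0.04 against 0.58 and Slc31a2 0.50 against 0.735 (adjusted p = 0.782, 0.988 and 0.582, edgeR). In fibroblasts 1 of 8 rose and 2 fell, against the 33.4% of all genes. The copper exporter Atp7a fell there from 19.7 ± 1.649 to 16.58 ± 1.811 CPM (adjusted p = 0.00699, edgeR). Its log2 ratio was -0.49, against -0.35 and -0.38 within clusters 3 and 5 (adjusted p = 0.291 and 0.127). NRF2 is the oxidative stress factor that binds the antioxidant response element. Its list of 11 genes holds targets, its own gene Nfe2l2 and the gene of its inhibitor, Keap1. Of 114 tests 14 were higher and 15 lower. In fibroblasts 5 of 11 rose and 1 fell, against the 33.4% of all genes. The 1 that fell, named after its values were seen, was Nfe2l2, and Keap1 was among those that rose. Gsr, glutathione reductase, rose from 22.91 ± 3.31 to 65.56 ± 10.73 CPM (adjusted p = 0.000142, edgeR) and the cystine importer Slc7a11 from 1.378 ± 0.8735 to 11.21 ± 8.862 CPM (adjusted p = 0.0029, edgeR). In macrophages 2 of 11 rose and 5 fell, against the 24.3% of all genes, with a median log2 ratio of -0.54: Gsr rose from 25.48 ± 2.398 to 91.6 ± 27.59 CPM (adjusted p = 0.00132, edgeR) and Slc7a11 rose, while Hmox1, the antioxidant gene Srxn1 and the glutathione synthesis gene Gclc fell, with log2 ratios of -2.18, -1.81 and -1.01. Within cluster 7 the log2 ratio of Gsr was 0.42 (adjusted p = 0.74) and that of Hmox1 -0.14. Gsr and Slc7a11 were higher in 5 of 5 rounds in both classes.

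Across 147 sums over 17 classes and 8876 genes with a mean of at least 10 CPM, the genes most like each member were found by Pearson's correlation of log2(CPM + 1). The sums share libraries, depth and cell types, so these are descriptions. Mt1 and Mt2 had a correlation of 0.918 with each other. The gene most like both was Nfix, with 0.841 for Mt1 and 0.863 for Mt2. Aldh2, Cd109, Slc6a8 and Tceal8 followed for Mt1, from 0.809 to 0.75, and Cttn, Gas1, Ltbp3 and Sh3pxd2a for Mt2, from 0.779 to 0.753. Mt4 was most like Cldn4, Klk7, Zfp750, Sprr1a and Rab25, from 0.777 to 0.714. Slc39a14 was most like Eva1b, Adgra2, Cyp20a1, Timp1 and Ank2, from 0.716 to 0.671.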

How the data were processed

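Gene by cell matrices of 10 libraries, deposited by the authors, hold raw UMI counts, made with Cell Ranger 6.1.2 on mouse build mm10, per the submitters' processing notes; 8 tag count tables mark single mice. The members and lists were chosen with earlier results of these data known. The filters were 200 genes and 500 UMIs as minima and 10% mitochondrial UMIs as the upper limit; doublets found by Scrublet (0.05843% to 2.972% per library) and cells with more than 1 mouse tag (HTODemux, Seurat 5.3.0, quantile 0.99) were removed. Clustering (scanpy 1.11.5, leidenalg 0.10.2, Python 3.11.15) used 2000 variable genes, 30 components, 15 neighbours and resolution 1, with member and zinc genes (Mt1 to Mt4) taken out of the variable genes; rules for class names were settled while the clusters were examined. Mouse tags were found on 98.75% of macrophages and 43.66% of fibroblasts. Counts were summed per class and library (at least 20 cells, at least 4 libraries per arm) and fitted by edgeR 4.0.16 in R 4.3.3 (filterByExpr, TMM, quasi-likelihood test, day as covariate), with Benjamini-Hochberg adjustment over all genes of a class and a threshold of 0.05. Named are all members, and of each list and class at most the 5 genes past the threshold with the largest change, and the 5 genes most like a member. Rounds mark mice processed together, 1 tube per arm, and so pair the libraries; same-round deviations correlated from -0.00353 to 0.286. DESeq2 1.42.0, RLE factors, no filter, at least 50 cells, a 5% mitochondrial limit, thinning to 2000 UMIs, the block, sums per mouse and leaving out each library were alternatives, as were fits within single clusters and the same settings for the 5 lists of other signals, both added after seeing the data. The fit was tested on simulated data. Promoters and annotation are RefSeq GRCm38.p6 and GENCODE vM21.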

Additional observations from a re-analysis of the deposited data

Results flagged for a closer look

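Of 120 groups of 4 or 5 libraries checked, 12 held a library far from the others of its arm. Chance alone gives about 5 in 100 where the libraries of a group are alike. Each group mixes days, so a difference between days can also be flagged, and no excess is read from the count. Most of the 12 were libraries of day 1. In controls of day 1 round 1, Mt1 was 390.3 CPM in NK cells against 114.7 in the nearest control library, 1494 in endothelial cells against 866.3, Mt2 was 3554 CPM in hair matrix or shaft cells against 1545, and Mt4 was 69.82 CPM in basal keratinocytes against 20.25. In the expanded library of day 1 round 1, Mt1 was 1048 CPM in macrophages or monocytes against 552.6, and Mt2 was 374.5 CPM there against 87.43 and 509.7 CPM in dendritic cells against 159.9. In the day 1 round 2 libraries, Mt4 was 25.77 CPM in expanded fibroblasts against 9.426, Slc30a1 was 27.12 CPM in expanded T cells against 11.91, and Mtf1 was 26.74 CPM in control NK cells against 11.9. Later libraries gave the other two: Mt1 was 2259 CPM in melanocytes of expanded day 2 round 1 against 1609, and 3673 CPM in fibroblasts of expanded day 4, below the next at 5738.

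Mtf1 in macrophages or monocytes had a mean log2 difference of expanded minus control of -0.233 at day 1 (-0.394 and -0.0712 in its rounds) and of 0.322 at day 2 (0.153 and 0.492), so both rounds of one day lay on one side and both of the other day on the other. The difference between the days was not tested.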

How the results depend on the processing

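Of 977 log2 ratios of the members under other settings, 962 stayed within 1 SD of the rounds' differences from the reported value, 15 moved further and 0 changed the sign of a value past the threshold. Of 102 levels, 99 moved by less than 1 SD when CPM was averaged per cell. With 1 library left out, called values ranged from -1.983 to -1.455 (Mt1 in macrophages), -1.903 to -1.374 (Mt1 in pericytes), -2.524 to -1.610 (Mt2 in macrophages), -1.896 to -1.058 (Mt2 in NK cells), -1.642 to -0.956 (Mt1 in dendritic cells), -0.926 to -0.600 (Mt1 in endothelial cells), -1.71 to -0.797 (Mt2 in dendritic cells), -4.116 to -2.271 (Mt4 in basal keratinocytes), -5.062 to -3.578 (Mt4 in hair matrix or shaft cells), -0.953 to -0.658 (Slc30a1 in dendritic cells), -1.773 to -1.31 (Slc30a1 in macrophages), 0.489 to 0.798 (Slc39a14 in fibroblasts) and 1.551 to 1.896 (Slc39a14 in lymphatic endothelial cells). Summed per tagged mouse, Mt4 in basal keratinocytes was -0.082. Within single clusters, chosen after seeing the data, Slc39a14 was 0.288 in fibroblast cluster 3 and 1.192 in cluster 5, and in macrophage cluster 7 Slc30a1 was -0.062, Mt2 -1.191 and Mt1 -0.519. Against 13 member calls, no filter on low counts gave 27, the replicate block 21, and leaving out 1 library 6 (expanded day 4) to 17. Against 17 zinc calls, thinning gave 5, the replicate block 19 (15 of the 17 and 4 others), and leaving out 1 library 6 (control day 1 round 2) to 18. The same for the other lists gave 3 to 9 (copper, main 8), 12 to 19 (iron, main 16), 19 to 32 (glucocorticoid, main 28), 24 to 41 (interleukin 6, main 36) and 18 to 34 (NRF2, main 29); no filter gave 28 iron calls. The cause was not tested. Counts of 3 UMIs or fewer limit Mt4 at day 2 and Slc39a14 in 1 control library of lymphatic cells.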
